A study of Mus musculus with 24 samples.

Results

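Livers of progeroid Ercc1 d/- mice aged 16 weeks were compared directly with livers of naturally aged Ercc1 +/+ mice aged 104 weeks, using the polyA mRNA libraries of both groups. The 8 libraries, 4 per group, were all those labelled with these genotypes, ages and free feeding among the 24 of the series, and the choice used no measured value. Ercc1 d/- mice carry a truncated (Δ) allele and a null allele of Ercc1, and on average ate 2.3 g of food a day when fed ad libitum. Ercc1 +/+ mice are wild type, and adult animals ate 3.0 g a day ad libitum. All animals were male F1 hybrids of C57BL6J and FVBN, housed singly and fed just before the dark period, except on the day of sacrifice, when no food preceded collection. Genotype, age and food intake differ together between the 2 groups and cannot be told apart here. The labels give no time of day of collection. Nor do they tie each library to its own animal, and p-values therefore cover only the spread between these libraries, which may be technical in part. Ercc1 +/+ mice of 16 weeks (n = 4) are cited below for their levels only, without a test.

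ERCC1 and XPF form the nuclease that cuts DNA on one side of a lesion during nucleotide excision repair, and it also acts in the repair of crosslinks. Mice with little ERCC1 develop features of ageing early in life, and the liver is among the affected organs, with enlarged polyploid nuclei. DNA damage activates p53, a transcription factor that induces genes of cell cycle arrest and apoptosis, while nucleic acids in the cytosol can induce interferon-stimulated genes. The liver also runs the synthesis of fatty acids, sterols and bile acids, detoxification and most plasma proteins, in programmes set by nuclear receptors, growth hormone and the circadian clock.

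Library depth averaged 15.5 ± 1.45 M counts (SD, n = 4; M, mega) in Ercc1 d/- livers and 14.3 ± 0.828 M counts in old wild-type livers. Levels below are CPM (counts scaled to a common library size after TMM normalization), given in the order of replicates 1 to 4 or as mean ± SD (n = 4). Ercc1 itself (chr7:19344778-19356524, GRCm38) had 2.08, 1.08, 1.42 and 1.46 CPM in Ercc1 d/- livers, against 3.08, 4.03, 3.16 and 2.18 CPM in old wild-type livers, and the groups did not overlap. The fall was -1.04 ± 0.28 (log2 fold change ± SE; adjusted p = 0.0123 by edgeR's quasi-likelihood test with Benjamini-Hochberg adjustment). It missed the threshold without mutant replicate 2 (-0.90, adjusted p = 0.0525). Counts over the whole gene do not separate the alleles. The 17 hepatocyte markers summed to 92535 to 115083 CPM in Ercc1 d/- livers and 82488 to 137948 CPM in old wild-type livers, and none of them was at 0 in all 8 libraries. Alb made up 56.4% to 61.4% of the sum in Ercc1 d/- livers and 44.5% to 53.7% in old wild-type livers. Without Alb the sum was 39408 to 47608 CPM in Ercc1 d/- livers and 45580 to 67757 CPM in old wild-type livers, with overlap. Of the 17 markers 11 had a log2 fold change below 0 and 6 above. The genes varied by a median SD of 0.224 on the log2 scale in Ercc1 d/- livers and 0.283 in old wild-type livers. Replicate 1 of each group was the highest of its group in several stress transcripts, given below beside the results they touch.

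Of 12690 genes tested, 1861 (14.7%) differed between Ercc1 d/- and old wild-type livers at an adjusted p under 0.05. Of these, 948 (7.47% of the tested genes) were higher and 913 (7.19%) lower in Ercc1 d/- livers. The change passed 1 on the log2 scale in 894 genes (7.04%), of which 491 were higher and 403 lower. The libraries of the 2 groups did not overlap in 2257 genes (17.8%), and 1485 genes met both conditions. The 95% interval of the change lay within ±1 for 8472 genes (66.8%) and within ±0.5 for 3052 (24.1%). Without replicate 1 of both groups, a choice made after seeing the data, 1140 genes passed, 488 of them lower. Gene lists differed widely in this share. Among 44 tested interferon genes 40.9% passed and none was lower, whereas none of 79 cytosolic ribosomal protein genes and none of 75 nuclear respiratory chain genes passed.

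**Figure D1:**
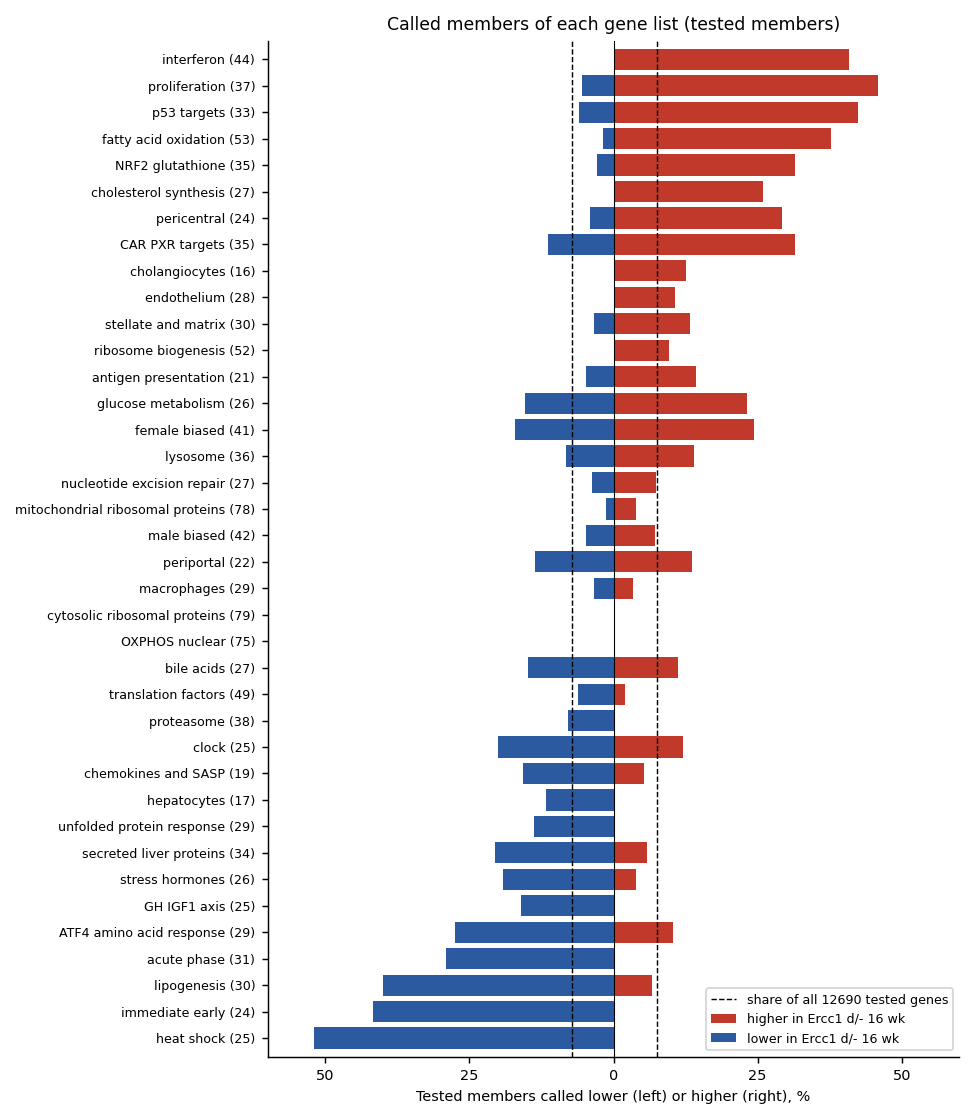
Share of the tested members of each gene list (number tested in brackets) that were called higher (red, right) or lower (blue, left) in Ercc1 d/- livers of 16 weeks against Ercc1 +/+ livers of 104 weeks, in percent, for the 38 lists with at least 15 tested members. Dashed lines mark the shares among all 12690 tested genes, 7.47% higher and 7.19% lower; interferon, proliferation, p53 and fatty acid oxidation genes lie right of them and heat shock, immediate-early and lipogenesis genes left.

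Interferon-stimulated genes were higher in Ercc1 d/- livers. Of 44 tested, 18 rose and none fell, against 7.47% of all tested genes that rose, with a median log2 fold change of 0.73, against 0.00083 over all tested genes. Usp18 (chr6:121245906-121270917), the protease that removes ISG15 from proteins and restrains the interferon receptor, had 18.6, 9.34, 12.8 and 10.2 CPM in Ercc1 d/- livers, against 0.831, 0.87, 2.29 and 0.946 CPM in old wild-type livers. Every Ercc1 d/- library lay above every old wild-type library, and the rise was 3.33 ± 0.34 (adjusted p = 7.2e-07). Irf7 (chr7:141262706-141266481), a transcription factor of the type I interferon response, had 64.3, 41, 42.4 and 44.3 CPM in Ercc1 d/- livers, against 12.9, 11.2, 18.2 and 11.1 CPM in old wild-type livers (1.84 ± 0.20, adjusted p = 1.41e-06). Again the groups did not overlap, and mutant replicate 1 was the highest library. Oas1g, of the family that senses double-stranded RNA, averaged 5.28 ± 1.11 CPM in Ercc1 d/- livers and 1.24 ± 0.448 CPM in old wild-type livers (2.08 ± 0.29, adjusted p = 2.82e-05). The summed level of the 44 genes was 1000 to 1293 CPM in Ercc1 d/- livers, 656 to 854 CPM in old wild-type livers and 662 to 772 CPM in young wild-type livers. The count depended on replicate 1: 9 members rose without mutant replicate 1, 11 without old wild-type replicate 1 and 9 without both, and 9 to 21 over all alternatives, with none lower in any of them. Usp18, Irf7 and Oas1g passed in each of these alternatives.

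The promoters of these genes, from 250 bases before to 50 after the start (RefSeq, GRCm38.p6), were searched on both strands for GAAANNGAAA, the core of the interferon-stimulated response element. Of the 18 members that rose 15 have an entry and 9 of these hold the motif, as do 11 of the 16 with an entry among those not called, while 3.99% of all genes with a promoter entry hold it. Gbp3, a guanylate-binding protein, and Oas1a, a close relative of Oas1g, were chosen to be shown beside Oas1g because they hold the motif and rose, after their values were seen. Gbp3 averaged 9.24 ± 2.00 CPM in Ercc1 d/- livers and 3.05 ± 0.692 CPM in old wild-type livers (1.59 ± 0.27, adjusted p = 0.000277). Oas1a averaged 6.62 ± 1.47 CPM in Ercc1 d/- livers and 1.67 ± 0.843 CPM in old wild-type livers (1.97 ± 0.32, adjusted p = 0.00012). Neither overlapped between the groups, and Oas1a and Oas1g are alike enough that reads may have been split between them. Capitals mark the matches, overlapping ones merged; the first lies 18 bases before the start in Oas1g, 20 in Oas1a and 45 in Gbp3. The sequences are from chr5:120887564-120887863 (minus strand), chr5:120907476-120907775 (minus strand) and chr3:142559794-142560093 (plus strand).
Oas1g: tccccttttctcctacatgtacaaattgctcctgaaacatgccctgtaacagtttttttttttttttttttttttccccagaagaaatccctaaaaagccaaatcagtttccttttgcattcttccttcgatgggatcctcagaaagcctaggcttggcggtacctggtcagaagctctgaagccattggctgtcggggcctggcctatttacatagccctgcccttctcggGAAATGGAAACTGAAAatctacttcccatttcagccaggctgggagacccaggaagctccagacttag
Oas1a: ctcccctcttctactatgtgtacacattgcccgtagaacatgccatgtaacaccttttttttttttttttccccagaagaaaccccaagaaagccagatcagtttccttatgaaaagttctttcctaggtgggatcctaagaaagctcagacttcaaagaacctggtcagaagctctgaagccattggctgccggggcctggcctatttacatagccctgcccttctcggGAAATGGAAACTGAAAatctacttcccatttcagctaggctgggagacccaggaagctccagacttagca
Gbp3: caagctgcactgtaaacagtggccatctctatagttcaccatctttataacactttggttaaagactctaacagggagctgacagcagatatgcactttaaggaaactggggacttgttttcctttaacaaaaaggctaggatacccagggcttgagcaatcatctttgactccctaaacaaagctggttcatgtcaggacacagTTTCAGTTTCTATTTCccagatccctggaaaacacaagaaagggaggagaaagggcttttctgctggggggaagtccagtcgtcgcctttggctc

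Antigen presentation changed in a few members only: 3 of 21 rose, 1 fell, and the median was 0.01. Psmb8, a catalytic subunit of the immunoproteasome, had 45.4, 39.9, 47.8 and 43 CPM in Ercc1 d/- livers, against 18, 28.5, 27.9 and 22.5 CPM in old wild-type livers (0.86 ± 0.14, adjusted p = 0.000187). Tapbp, which helps to load peptides onto MHC class I, averaged 56.5 ± 2.52 CPM in Ercc1 d/- livers and 38.3 ± 2.84 CPM in old wild-type livers (0.56 ± 0.11, adjusted p = 0.00126). B2m, the light chain of class I, was at 0.35 ± 0.13 and did not pass (adjusted p = 0.0636), although the groups did not overlap. H2-Aa, a chain of MHC class II, went the other way, with 17.7, 14.1, 9.97 and 10.3 CPM in Ercc1 d/- livers, against 18.1, 23.2, 24.7 and 29.8 CPM in old wild-type livers (-0.88 ± 0.24, adjusted p = 0.0128; -0.77 and adjusted p = 0.0525 without mutant replicate 3). Without mutant replicate 1, 3 members of the list fell, 2 without old wild-type replicate 1, and over all alternatives 2 to 5 rose.

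Among targets of p53, 14 of 33 tested members rose and 2 fell, with a median log2 fold change of 0.63. The summed level of the list overlapped, at 638 to 899 CPM in Ercc1 d/- livers and 475 to 1057 CPM in old wild-type livers, where replicate 1 was above every Ercc1 d/- library. Ccng1, cyclin G1, had 66.5, 34.4, 40.7 and 44.9 CPM in Ercc1 d/- livers, against 15.5, 11.6, 21.1 and 16 CPM in old wild-type livers (1.54 ± 0.22, adjusted p = 2.82e-05). Gdf15 (chr8:70629393-70632456), a circulating stress cytokine, had 44.5, 19.4, 12.3 and 17.9 CPM in Ercc1 d/- livers, against 2.91, 4.35, 2.09 and 2.33 CPM in old wild-type livers (3.02 ± 0.44, adjusted p = 6.55e-05). Both genes were highest in mutant replicate 1, and neither overlapped between the groups. Gtse1, a microtubule-associated protein that binds p53 in G2, averaged 3.49 ± 0.853 CPM in Ercc1 d/- livers and 0.445 ± 0.209 CPM in old wild-type livers (2.98 ± 0.45, adjusted p = 6.14e-05). Among other targets, Cdkn1a, which encodes the cell cycle inhibitor p21, had 54.3, 16.1, 24.2 and 14.6 CPM in Ercc1 d/- livers, against 15.5, 6.48, 15.6 and 1.53 CPM in old wild-type livers (1.48 ± 0.56, adjusted p = 0.0849), and did not pass. Its old wild-type libraries spread widely and 2 of them reached the range of the mutant. Mdm2, the ubiquitin ligase that degrades p53, did not pass either (0.21 ± 0.19, adjusted p = 0.533), with 36.6 ± 6.5 CPM in Ercc1 d/- livers and 31.6 ± 11.2 CPM in old wild-type livers. With 1 library left out at a time, 13 to 15 members rose and 0 to 2 fell, and without replicate 1 of both groups 13 rose and none fell.

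Cell cycle transcripts were higher in the young mutant. Of 37 tested, 17 rose and 2 fell, and the median log2 fold change of 1.51 was the highest of the 45 lists. Mcm5 (chr8:75109569-75128439), a subunit of the helicase that opens DNA for replication, had 5.29, 9.17, 10.0 and 11.3 CPM in Ercc1 d/- livers, against 0.915, 1.34, 1.35 and 0.946 CPM in old wild-type livers (2.96 ± 0.41, adjusted p = 2.26e-05). Mcm6, of the same helicase, had 6.86, 15.4, 15.9 and 18.6 CPM in Ercc1 d/- livers, against 2.49, 1.9, 2.56 and 2.11 CPM in old wild-type livers (2.64 ± 0.44, adjusted p = 0.00026). Mutant replicate 1, the library with the most Ccng1 and Gdf15, had the least Mcm5 and Mcm6 of its group, yet lay above all old wild-type libraries. Cdk1, the kinase that starts mitosis, averaged 2.26 ± 0.22 CPM in Ercc1 d/- livers and 0.327 ± 0.19 CPM in old wild-type livers (2.79 ± 0.48, adjusted p = 0.000259). Mki67, the proliferation marker Ki-67, was at 0.91 ± 0.45 and did not pass (adjusted p = 0.196). Young wild-type livers, which like the mutant were 16 weeks old, had 4.19 ± 2.76 CPM of Mcm5 and 7.6 ± 4.76 CPM of Mcm6, on average between the 2 groups. Cdk1 averaged 1.64 ± 0.684 CPM in young wild-type livers. The summed level of the list overlapped, at 154 to 255 CPM in Ercc1 d/- livers and 121 to 167 CPM in old wild-type livers. Young wild-type livers, at 122 to 214 CPM, overlapped both. Over all alternatives 14 to 22 members rose. The E2F motif TTCCCGC was in 1 of the 12 promoters of risen members with an entry and in 2 of the 15 of members not called, against 5.29% of all genes. Among nucleotide excision repair genes, 2 of 27 rose and 1, Ercc1, fell (1 to 3 rose and 0 to 2 fell over the alternatives). That was 11.1% called, against 14.7% of all tested genes. Ercc3, a helicase of TFIIH, averaged 29.7 ± 1.84 CPM in Ercc1 d/- livers and 19.9 ± 2.05 CPM in old wild-type livers (0.58 ± 0.12, adjusted p = 0.00169). Ercc4, which encodes the partner XPF, was at 0.24 ± 0.19 (adjusted p = 0.45).

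**Figure D2:**
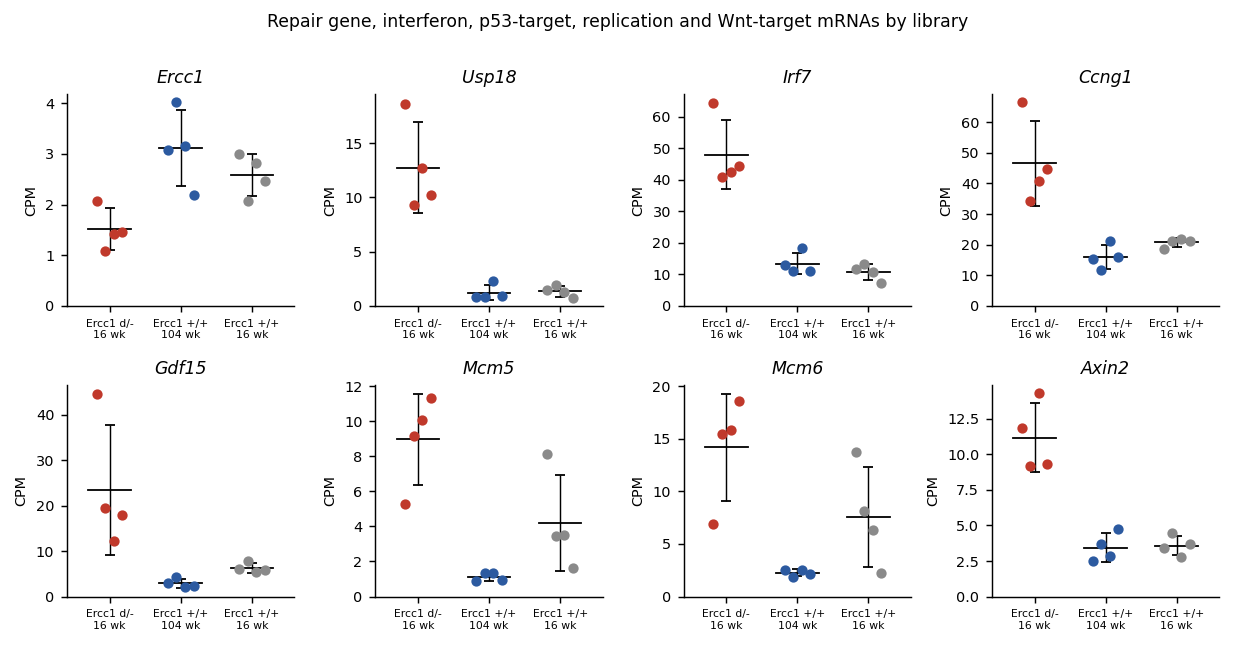
CPM (vertical axes, from 0) of 8 genes in each library of Ercc1 d/- 16-week (red), Ercc1 +/+ 104-week (blue) and Ercc1 +/+ 16-week (grey) livers; lines are means and bars ± 1 SD (n = 4). Usp18, Irf7, Ccng1, Gdf15, Mcm5, Mcm6 and Axin2 lie higher and Ercc1 lower in every mutant library than in every old library, and mutant replicate 1 is the top point for Usp18, Irf7, Ccng1 and Gdf15.

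Lipid handling differed in opposite senses for burning and making fat. Of 53 genes of fatty acid oxidation and PPARα, the nuclear receptor of the fasting liver, 20 rose and 1 fell (median 0.31). Of 30 lipogenic genes, 2 rose and 12 fell (median -0.75). Cyp4a10 (chr4:115518264-115533649), a fatty acid ω-hydroxylase and PPARα target, had 411, 417, 232 and 390.2 CPM in Ercc1 d/- livers, against 54.3, 20.6, 39.5 and 21.5 CPM in old wild-type livers (3.42 ± 0.35, adjusted p = 1.18e-06). Young wild-type livers had more than either, 799.9 ± 269 CPM, so the old group was the lowest of the 3. Its relatives Cyp4a31 (3.02 ± 0.31, adjusted p = 1.04e-06) and Cyp4a32 (2.55 ± 0.29, adjusted p = 2.81e-06) rose as well, and reads may be shared among these close copies. Fabp1, which carries fatty acids in the cytosol, was the member that fell, with 2556, 1942, 1681 and 1903 CPM in Ercc1 d/- livers, against 4181, 4785, 3080 and 3989 CPM in old wild-type livers (-0.99 ± 0.17, adjusted p = 0.000298). Across the alternatives 14 to 22 members rose, 14 without replicate 1 of both groups. AGGTCANAGGTCA, the direct repeat bound by PPARα, was in none of the 14 promoters of risen members with an entry, in none of the 25 of members not called, and in 0.0481% of all genes.

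On the synthetic side, Scd1 (chr19:44394455-44407879), the desaturase that makes oleate, had 205, 273, 114 and 317 CPM in Ercc1 d/- livers, against 4634, 1534, 3274 and 1117 CPM in old wild-type livers. The highest mutant library lay under the lowest old one, and the fall was -3.54 ± 0.43 (adjusted p = 9.75e-06). Young wild-type livers, at 2652 ± 671 CPM, were near the old ones. Scd2, Scd3 and Scd4 fell by nearly the same amount (-3.50, -3.51 and -3.49). Their counts stayed at 0.251 to 0.299, 0.263 to 0.321 and 0.175 to 0.206 of those of Scd1 in all 8 libraries, so these copies may share reads of Scd1 and were not read as separate genes. Acacb, the carboxylase whose product blocks fatty acid entry into mitochondria, had 37.8, 32.1, 39 and 37.7 CPM in Ercc1 d/- livers, against 194, 100.1, 115 and 52.5 CPM in old wild-type livers (-1.66 ± 0.27, adjusted p = 0.000169). Me1, malic enzyme, averaged 87.3 ± 19.3 CPM in Ercc1 d/- livers and 250.1 ± 121 CPM in old wild-type livers (-1.52 ± 0.27, adjusted p = 0.000457). Fasn, fatty acid synthase, did not pass (-1.40 ± 0.59, adjusted p = 0.122): it had 257, 494, 512 and 332 CPM in Ercc1 d/- livers, against 2338, 711, 729 and 441 CPM in old wild-type livers. Old wild-type replicate 1 stood far above the other libraries of its group in Fasn, and the groups overlapped. Without that library 6 lipogenic members fell, and without replicate 1 of both groups 5.

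Of 27 tested genes of sterol synthesis 7 rose in Ercc1 d/- livers and none fell (median 0.39). Sqle, squalene epoxidase, had 73.3, 60.9, 59.3 and 52.4 CPM in Ercc1 d/- livers, against 30.5, 18.7, 2.36 and 9.46 CPM in old wild-type livers (2.02 ± 0.48, adjusted p = 0.00687; 2.61 without old wild-type replicate 1), a call lost when the 8 libraries were fitted alone. Msmo1, a sterol oxidase of the same pathway, had 85.7, 98.7, 80.4 and 91.8 CPM in Ercc1 d/- livers, against 46.3, 23.2, 16.4 and 21 CPM in old wild-type livers (1.74 ± 0.43, adjusted p = 0.00908). All mutant libraries lay above all old ones in both genes. The number of members that rose was 4 without mutant replicate 2, without mutant replicate 4, without old wild-type replicate 2 or without old wild-type replicate 3, and 10 without replicate 1 of both groups. Without old wild-type replicate 2 there was 1 member that fell.

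Of 27 bile acid genes 3 rose and 4 fell (median 0.02). Abcb11, the pump that exports bile salts into bile, had 137, 190.3, 135 and 192 CPM in Ercc1 d/- livers, against 508, 366, 463 and 396 CPM in old wild-type livers (-1.40 ± 0.28, adjusted p = 0.00149). Abcc3, an exporter on the blood side, averaged 155 ± 28.4 CPM in Ercc1 d/- livers and 71.3 ± 18.8 CPM in old wild-type livers (1.12 ± 0.21, adjusted p = 0.000528), and Akr1d1, the reductase of bile acid synthesis, rose by 1.08 ± 0.20 (adjusted p = 0.000662). For both transporters and Akr1d1 the groups did not overlap. Cyp7a1, the rate-limiting enzyme, did not pass (1.90 ± 0.81, adjusted p = 0.129), with 91.2, 71.7, 119 and 96.2 CPM in Ercc1 d/- livers, against 3.58, 2.29, 79.3 and 15.4 CPM in old wild-type livers. Old wild-type replicate 3 reached the mutant range, and without it Cyp7a1 rose by 3.72 (adjusted p = 0.0031); it also passed by limma-voom (3.12, adjusted p = 0.020). The count of members that fell was 1 without mutant replicate 1 and 2 without mutant replicate 2, 3 or 4 or old wild-type replicate 1 or 2. Serpina12 (chr12:104028769-104044443), the secreted serpin vaspin, had the largest fall among called genes of at least 2 CPM on average without overlap: 12, 6.78, 9.26 and 7.44 CPM in Ercc1 d/- livers, against 232, 366, 217 and 218 CPM in old wild-type livers (-4.87 ± 0.34, adjusted p = 6.37e-09). At 71.5 ± 8.19 CPM young wild-type livers lay between, so it was high in old and low in progeroid livers.

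**Figure D3:**
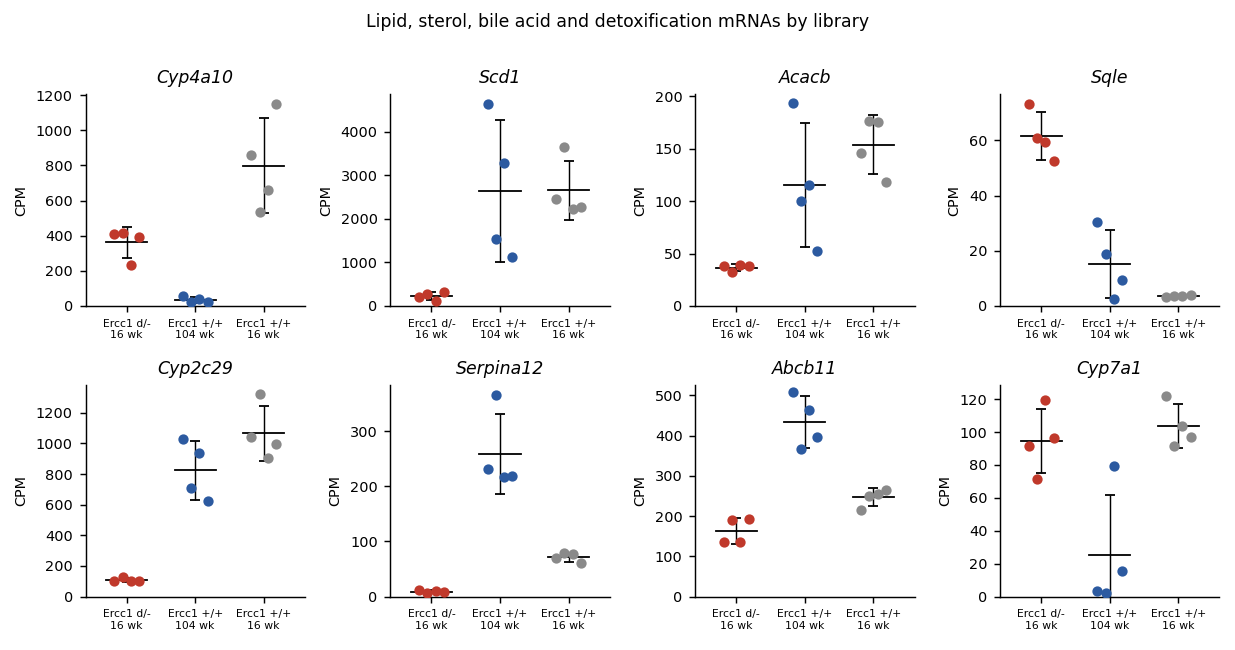
CPM (vertical axes, from 0) of 8 metabolic genes by library in Ercc1 d/- 16-week (red), Ercc1 +/+ 104-week (blue) and Ercc1 +/+ 16-week (grey) livers; lines are means and bars ± 1 SD (n = 4). Cyp4a10 and Sqle are higher and Scd1, Acacb, Cyp2c29, Serpina12 and Abcb11 lower in every mutant library than in every old library, while Cyp7a1 overlaps through old replicate 3.

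Detoxification enzymes moved in both directions: of 35 genes induced through the receptors CAR and PXR 11 rose and 4 fell (median 0.24). Cyp2c29 (chr19:39269405-39330713), an epoxygenase of the pericentral hepatocyte, had 102, 129, 101 and 101 CPM in Ercc1 d/- livers, against 1027, 707, 939.8 and 623 CPM in old wild-type livers (-2.93 ± 0.18, adjusted p = 2.06e-10). Young wild-type livers had 1067 ± 179.6 CPM, so the mutant was below both wild-type groups. Its neighbours Cyp2c38 (-1.89 ± 0.23) and Cyp2c39 (-1.78 ± 0.20) fell too (adjusted p = 4.46e-06 and 2.28e-06). Cyp2b10, the standard CAR target, fell by 2.46 ± 0.64 (adjusted p = 0.0124; -2.06 and adjusted p = 0.0577 without old wild-type replicate 1, and not called by limma-voom), but at 0.489 CPM in Ercc1 d/- livers and 2.77 CPM in old wild-type livers it was low in both groups, against 23.8 ± 8.04 CPM in young wild type. The PXR target Cyp3a11 had 561, 586, 470.0 and 567 CPM in Ercc1 d/- livers, against 229, 173, 223 and 148 CPM in old wild-type livers (1.5 ± 0.22, adjusted p = 3.76e-05). Young wild-type livers had 1549 ± 207 CPM, so both groups were below them. Cyp2a5, the coumarin hydroxylase, averaged 891 ± 222 CPM in Ercc1 d/- livers and 247 ± 79 CPM in old wild-type livers (1.85 ± 0.26, adjusted p = 3e-05). These P450 genes lie among close copies, and reads may be shared within each subfamily. Without mutant replicate 2, 7 of the 35 members rose.

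Of 24 genes of the zone around the central vein 7 rose and 1 fell (median 0.50), and of 22 periportal genes 3 rose and 3 fell (median -0.06). Axin2, a direct Wnt target, had 11.8, 9.17, 14.3 and 9.34 CPM in Ercc1 d/- livers, against 2.49, 3.72, 2.83 and 4.73 CPM in old wild-type livers (1.69 ± 0.24, adjusted p = 3.6e-05), without overlap. It averaged 3.44 ± 1.00 CPM in old and 3.59 ± 0.685 CPM in young wild-type livers. Cyp2e1, a pericentral P450, did not pass (0.45 ± 0.21, adjusted p = 0.173). Cyp2c29, described above, was the pericentral gene that fell. No periportal gene rose without mutant replicate 2, mutant replicate 4, old wild-type replicate 3 or old wild-type replicate 4. Only 1 periportal gene fell without mutant replicate 1 or old wild-type replicate 2.

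Sex-biased genes, which growth hormone pulses control in the mouse liver, did not move as a block in these males. Of 41 female-biased genes 10 rose and 7 fell (median -0.36, opposite in sign to the balance of calls), and of 42 male-biased genes 3 rose and 2 fell (median -0.19). Called shares were 41.5% of the female-biased and 11.9% of the male-biased genes, against 14.7% of all tested genes. With the 8 libraries fitted alone, 6 male-biased genes rose and 10 fell, and 4 female-biased genes fell both in that fit and without replicate 1 of both groups. Fmo1, a flavin monooxygenase, had 245, 355, 344 and 281 CPM in Ercc1 d/- livers, against 131, 77.3, 76.1 and 87.4 CPM in old wild-type livers (1.72 ± 0.19, adjusted p = 1.18e-06). Cyp3a41a, a female-biased P450, rose by 1.49 ± 0.21 (adjusted p = 3.46e-05), nearly the same amount as Cyp3a11, described above. Its level was a similar fraction of that of Cyp3a11 in each library of both groups. These copies may therefore share reads, and Cyp3a41a was not read as a separate gene, although it is counted among the 10 that rose. Mup20, the male urinary pheromone darcin, had 9093, 7036, 7383 and 9732 CPM in Ercc1 d/- livers, against 2286, 4999, 1764 and 3287 CPM in old wild-type livers (1.43 ± 0.39, adjusted p = 0.015). It missed the threshold without old wild-type replicate 1 (1.31, adjusted p = 0.0527) and without old wild-type replicate 3 (1.24, adjusted p = 0.0542). Cib3, a calcium-binding protein of the male-biased list, had 774 counts in Ercc1 d/- livers and 18 in old wild-type livers (5.11 ± 0.56, adjusted p = 2.15e-06; 5.72 without old wild-type replicate 2). Cib3 averaged 12 ± 3.08 CPM in Ercc1 d/- livers, 0.352 ± 0.291 CPM in old and 0.241 ± 0.264 CPM in young wild-type livers. It was thus barely detected in either group of wild-type males, although the list counts it as male-biased. Within the growth hormone axis none of 25 genes rose and 4 fell (16%, against 7.19% of all tested genes that fell). Ghr, the receptor, had 248, 272, 266 and 273 CPM in Ercc1 d/- livers, against 481, 357, 456 and 500.4 CPM in old wild-type livers (-0.76 ± 0.16, adjusted p = 0.00256). Cish, a feedback inhibitor that STAT5 induces, averaged 10.9 ± 5.34 CPM in Ercc1 d/- livers and 52.1 ± 12.9 CPM in old wild-type livers (-2.25 ± 0.45, adjusted p = 0.00167). Socs1, another feedback inhibitor, fell by 2.87 ± 0.52 (adjusted p = 0.0005; -3.66 without mutant replicate 1). Igf1 itself was at -0.19 ± 0.14 (adjusted p = 0.422), with 222 ± 28.9 CPM in Ercc1 d/- livers and 253 ± 28 CPM in old wild-type livers, and the 95% interval of its change was -0.49 to 0.10.

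Clock genes differed in both directions: of 25 tested, 3 rose and 5 fell (median -0.41). Arntl, which encodes the activator BMAL1, had 14.5, 14.3, 11.8 and 10.2 CPM in Ercc1 d/- livers, against 2.24, 1.98, 2.56 and 1.16 CPM in old wild-type livers (2.67 ± 0.28, adjusted p = 8.69e-07). Cry1 (chr10:85131700-85185064), a repressor of the same loop, had 36.1, 39.1, 39.5 and 34 CPM in Ercc1 d/- livers, against 10.8, 10.8, 10.6 and 11.8 CPM in old wild-type livers (1.75 ± 0.18, adjusted p = 9.21e-07). Every mutant library lay above every old one in both. Nr1d1 (chr11:98767932-98775333), the repressor REV-ERBα, had 7.05, 3.59, 3.28 and 4.83 CPM in Ercc1 d/- livers, against 49.1, 53.1, 63.1 and 45.3 CPM in old wild-type livers (-3.49 ± 0.40, adjusted p = 3.47e-06). Dbp, an output transcription factor, had 9.76, 9.91, 9.62 and 14.7 CPM in Ercc1 d/- livers, against 75.8, 145, 62 and 159 CPM in old wild-type livers (-3.32 ± 0.40, adjusted p = 7.21e-06). The groups did not overlap in either gene. Young wild-type livers resembled the mutant in all 4 genes, with 14.1 ± 4.23 CPM of Arntl, 42.2 ± 5.67 CPM of Cry1, 3.88 ± 1.87 CPM of Nr1d1 and 11.9 ± 5.45 CPM of Dbp. The 4 genes passed in each alternative, and 3 members fell without mutant replicate 2 or old wild-type replicate 4. Clock transcripts depend on the hour of collection, which the labels do not give, and its part was not tested.

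Promoters of clock genes were searched for the E-box CACGTG, the site of BMAL1 and CLOCK. It lies in 1 of the 2 risen members with an entry, Cry1, and in 2 of the 5 that fell, while 8.09% of all genes with an entry hold it. Among members not called, 2 of the 14 with an entry hold it. The D-box TTATGTAA was in none of these 7 called members and in 1 of the 14 not called, against 1.11% of all genes. Neither the Dbp nor the Nr1d1 window holds CACGTG. The Cry1 promoter is shown because it carries the match in a gene with very uniform libraries (chr10:85185005-85185304 (minus strand), RefSeq, GRCm38.p6; capitals mark the E-box, 60 bases before the start).
Cry1: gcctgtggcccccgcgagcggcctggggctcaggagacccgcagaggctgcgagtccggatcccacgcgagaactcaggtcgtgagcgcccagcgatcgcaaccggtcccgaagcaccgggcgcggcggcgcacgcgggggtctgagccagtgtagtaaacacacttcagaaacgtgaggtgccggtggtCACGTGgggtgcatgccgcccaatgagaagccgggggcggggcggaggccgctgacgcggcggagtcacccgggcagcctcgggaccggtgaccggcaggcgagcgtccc

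**Figure D4:**
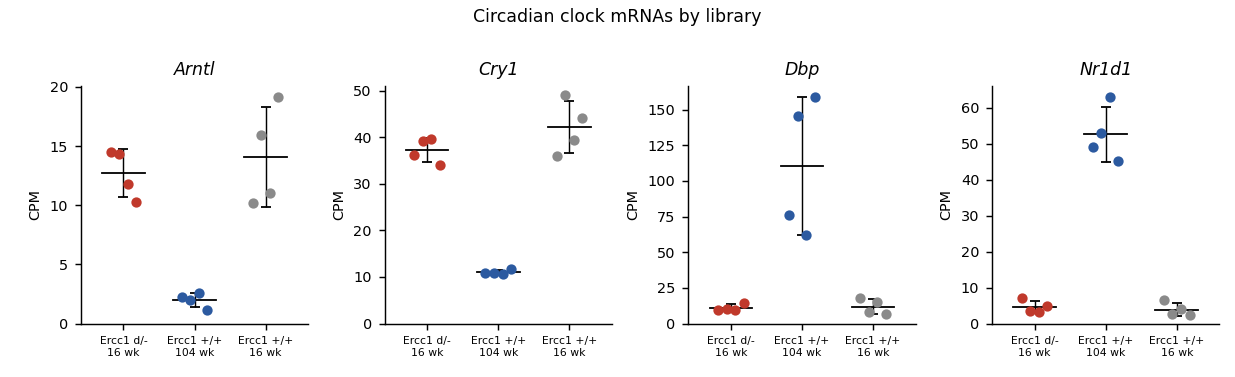
CPM (vertical axes, from 0) of 4 clock genes by library in Ercc1 d/- 16-week (red), Ercc1 +/+ 104-week (blue) and Ercc1 +/+ 16-week (grey) livers; lines are means and bars ± 1 SD (n = 4). Arntl and Cry1 are lowest and Dbp and Nr1d1 highest in all 4 old libraries, and the mutant lies with young wild type.

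B lineage transcripts were lower in Ercc1 d/- livers. Of the 25 markers 9 could be tested, and 6 fell and none rose (median -1.61). In bulk tissue, fewer cells of a type and less RNA per cell cannot be told apart. Ighm, the heavy chain of IgM, had 3.02, 2.85, 1.5 and 5.78 CPM in Ercc1 d/- livers, against 28.4, 33.5, 29.4 and 29.1 CPM in old wild-type livers (-3.19 ± 0.44, adjusted p = 3.08e-05). Igkc, the κ light chain, had 2.01, 0.912, 0.427 and 5.4 CPM in Ercc1 d/- livers, against 14.7, 15.3, 12.4 and 13 CPM in old wild-type livers (-2.65 ± 0.45, adjusted p = 0.000271; -3.61 without mutant replicate 4). The old libraries were uniform, and mutant replicate 4 had the most of both chains in its group. Jchain, which joins secreted IgM and IgA, had 24 counts in all in Ercc1 d/- livers and 82 in old wild-type livers (-2.02 ± 0.52, adjusted p = 0.00947), a call lost without replicate 1 of both groups. The 25 markers summed to 107 to 185 CPM in Ercc1 d/- livers, 247 to 411 CPM in old wild-type livers and 110.3 to 132 CPM in young wild-type livers, but 83.2% to 93.9% of the sum in Ercc1 d/- livers and 78.2% to 85.5% in old wild-type livers was Xbp1, which hepatocytes also express. The other 24 markers summed to 8.41 to 21.9 CPM in Ercc1 d/- livers, 53.8 to 70.7 CPM in old wild-type livers and 11.3 to 22.0 CPM in young wild-type livers. Constant region genes together had 180, 91, 50 and 286 counts in Ercc1 d/- livers, against 655, 730, 720 and 674 in old wild-type livers and 89 to 176 in young wild-type livers. Variable segments together had 90, 65, 20 and 170 counts in Ercc1 d/- livers, against 279, 340, 427 and 425 in old wild-type livers. Those with at least 3 counts numbered 9, 7, 0 and 24 in Ercc1 d/- livers, against 34, 52, 58 and 49 in old wild-type livers, which depends on these totals. The commonest segment took 4.12% to 10.0% of the variable counts in Ercc1 d/- livers and 4.22% to 10.8% in old wild-type livers. The 10.0% was in mutant replicate 3, on 20 counts in all. The IgG1 heavy chain went against the rest in 2 libraries, with 48, 4, 6 and 47 counts in Ercc1 d/- livers, against 20, 17, 8 and 16 in old wild-type livers and 0 to 1 in young wild-type livers. It was singled out after its counts were seen and is given without a test. Without replicate 1 of both groups 3 markers fell.

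Xbp1, the transcription factor of secretory cells, counts among these B lineage markers but also serves hepatocytes, and fell to 168, 98.2, 130.2 and 109 CPM in Ercc1 d/- livers, against 352, 329, 193 and 255 CPM in old wild-type livers (-1.16 ± 0.18, adjusted p = 8.32e-05). Of 29 tested macrophage markers 1 rose and 1 fell (6.90% called, against 14.7% of all tested genes, median 0.02). Clec4f, a marker of Kupffer cells, was at 0.30 ± 0.23 (adjusted p = 0.441) and Cd68, of macrophage lysosomes, at 0.20 ± 0.23 (adjusted p = 0.623). Trem2, a lipid-sensing receptor, rose by 1.85 ± 0.49 (adjusted p = 0.0117), on 65 counts in Ercc1 d/- livers and 15 in old wild-type livers, and was not called without replicate 1 of both groups. Cd9, a tetraspanin that other liver cells also express, fell by 1.63 ± 0.31 (adjusted p = 0.000741). Of the 28 T and natural killer cell markers 5 reached testable counts and 2 rose, or 1 without mutant replicate 1, 3 or 4 or old wild-type replicate 1, 2 or 3. Of the 20 neutrophil markers 8 were tested and 2 fell, but none without mutant replicate 3 or without old wild-type replicate 1. The summed T and natural killer list was 13.6 to 17.2 CPM in Ercc1 d/- livers and 8.81 to 14.3 CPM in old wild-type livers, with overlap, and Zap70, a kinase of the T cell receptor, made up 52.2% to 69.7% of it in Ercc1 d/- livers and 34.9% to 56.1% in old wild-type livers. The neutrophil list summed to 54.4 to 389 CPM in Ercc1 d/- livers and 27.4 to 172 CPM in old wild-type livers. Lcn2, an acute phase gene that hepatocytes also express, made up 78.1% to 95.3% of that sum in Ercc1 d/- livers and 31.0% to 87.2% in old wild-type livers. Without Lcn2 the list summed to 10.7 to 18.2 CPM in Ercc1 d/- livers and 18.9 to 22.9 CPM in old wild-type livers, and 7 of the 8 tested members had a log2 fold change below 0.

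**Figure D5:**
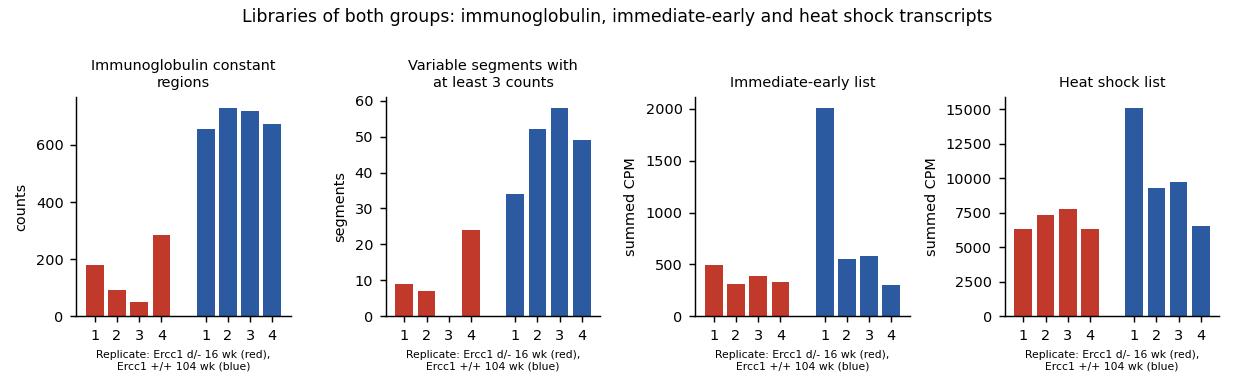
Counts of immunoglobulin constant region genes, number of variable segments with at least 3 counts, and summed CPM of the immediate-early and heat shock lists, in replicates 1 to 4 of Ercc1 d/- 16-week (red) and Ercc1 +/+ 104-week (blue) livers; bars start at 0. Immunoglobulin counts are higher in all 4 old libraries, whereas the immediate-early sum stands out in old replicate 1 alone, at 2010 CPM.

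Of 31 acute phase genes none rose and 9 fell in Ercc1 d/- livers (median -0.42). Cebpd, a transcription factor that interleukin 6 induces, had 7.11, 6.72, 6.91 and 6.42 CPM in Ercc1 d/- livers, against 16.2, 21.9, 22.3 and 9.6 CPM in old wild-type livers (-1.37 ± 0.26, adjusted p = 0.000641). The fibrinogen chains Fgb (-0.99 ± 0.25) and Fgg (-0.99 ± 0.25) fell together (both adjusted p = 0.00818), with overlap between the groups. Saa1, serum amyloid A, swung by more than an order of magnitude within each group, with 1029, 71.9, 97.4 and 2109 CPM in Ercc1 d/- livers, against 20.8, 2479, 604 and 116 CPM in old wild-type livers, and showed no difference that this spread could resolve (0.04 ± 1.13, adjusted p = 0.992). Without mutant replicate 2, and with the 8 libraries fitted alone, 5 acute phase genes fell. Of 19 tested inflammatory secreted factors 1 rose, Gdf15, and 3 fell (1 without replicate 1 of both groups). Cxcl1, a neutrophil chemokine, had 10.9, 3.08, 5.13 and 16 CPM in Ercc1 d/- livers, against 50.9, 73.7, 29.1 and 17.3 CPM in old wild-type livers (-2.28 ± 0.45, adjusted p = 0.00125), and both groups were above the 1.35 ± 0.757 CPM of young wild type. Plaur, the urokinase receptor, fell by 2.30 ± 0.57 (adjusted p = 0.00773), but by 1.22 without old wild-type replicate 1 (adjusted p = 0.127).

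Immediate-early and heat shock genes were lower in Ercc1 d/- livers, with counts that depended on single libraries of both groups. Of 24 immediate-early genes 10 fell and none rose (median -1.5), and 3 fell and 1 rose without old wild-type replicate 1. Egr1, a factor induced within minutes of stimulation, had 2.64, 3.36, 2.71 and 1.72 CPM in Ercc1 d/- livers, against 426, 1.34, 12 and 4.87 CPM in old wild-type livers. Its fall of -5.40 ± 1.37 (adjusted p = 0.0118) became -1.22 (adjusted p = 0.381) without that library. Fos behaved alike, at -3.20 ± 0.90 (adjusted p = 0.0188), and -0.68 (adjusted p = 0.56) without it; it was also lost without mutant replicate 2 (-2.95, adjusted p = 0.0642). Maff, a small Maf factor, fell by 2.26 ± 0.53 (adjusted p = 0.00589), and by 1.26 without that library (adjusted p = 0.0518). Klf10, which TGF-β induces, was lower in every Ercc1 d/- library: it had 5.79, 7.18, 10.1 and 8.45 CPM in Ercc1 d/- livers, against 36.2, 21.2, 21.9 and 23.6 CPM in old wild-type livers (-1.71 ± 0.22, adjusted p = 9.12e-06). Junb, an AP-1 subunit, fell by 2.34 ± 0.49 (adjusted p = 0.00278; -1.43 without old wild-type replicate 1). Without mutant replicate 2, 5 immediate-early genes fell, by limma-voom 3 and with the 8 libraries fitted alone 1; Egr1, Fos, Maff, Junb and Plaur were not called in that last fit.

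Of 25 heat shock genes 13 fell and none rose (median -0.44). The summed level was 6290 to 7799 CPM in Ercc1 d/- livers and 6521 to 15093 CPM in old wild-type livers, where replicate 1 was the highest. The count fell to 3 without old wild-type replicate 1, to 4 without mutant replicate 4, 5 without mutant replicate 1, 6 without mutant replicate 2, 7 without old wild-type replicate 3 and 1 without replicate 1 of both groups, but rose to 17 without old wild-type replicate 4. It was 7 by limma-voom, 8 with no filter and 5 with the 8 libraries fitted alone. Hspa4l, a large chaperone of the HSP110 family, had 15.7, 28.5, 23.2 and 23 CPM in Ercc1 d/- livers, against 75.6, 36.1, 67 and 35.2 CPM in old wild-type livers (-1.24 ± 0.29, adjusted p = 0.0052). Stip1, which links HSP70 to HSP90, averaged 109 ± 20.0 CPM in Ercc1 d/- livers and 178 ± 32.1 CPM in old wild-type livers (-0.71 ± 0.19, adjusted p = 0.0118). Hspa4l and Stip1 were not called without replicate 1 of both groups. Bag3, a co-chaperone of selective autophagy, fell by 1.07 ± 0.26 (adjusted p = 0.00734). The GAANNTTCNNGAA arrangement of the heat shock element was in 2 of the 10 promoters of lowered members with an entry, against 0.662% of all genes. It was also in 2 of the 8 with an entry among members not called, so it did not set the lowered members apart.

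The unfolded protein response and the amino acid response were lower in part. None of 29 tested records of the first rose and 4 fell, 28 of the 29 being below 0 (median -0.44). The 4 were 13.8% of the list, against 14.7% of all tested genes called in either direction and 7.19% called lower. The number that fell was 7 with the 8 libraries fitted alone and 2 without replicate 1 of both groups. Ero1b, an oxidase that helps to form disulfide bonds, had 32, 34.9, 40.8 and 44.4 CPM in Ercc1 d/- livers, against 74.4, 86.3, 78.5 and 98.5 CPM in old wild-type livers (-1.15 ± 0.25, adjusted p = 0.00282). Hspa5, the main chaperone BiP, did not pass (-0.64 ± 0.31, adjusted p = 0.187). Of 29 records of the ATF4 programme 3 rose and 8 fell. Atf5, a factor of this programme, averaged 129 ± 21.5 CPM in Ercc1 d/- livers and 328 ± 90.2 CPM in old wild-type livers (-1.34 ± 0.24, adjusted p = 0.000523). Vldlr, a lipoprotein receptor, fell by 3.09 ± 0.59 (adjusted p = 0.000801; -2.35 without old wild-type replicate 1). Without mutant replicate 2 or old wild-type replicate 2, 5 members of the ATF4 programme fell, and 4 with the 8 libraries fitted alone.

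Of 35 genes of the NRF2 and glutathione list 11 rose and 1 fell (median 0.15). Nqo1, a quinone reductase and NRF2 target, had 5.04, 7.69, 7.91 and 7.12 CPM in Ercc1 d/- livers, against 2.99, 1.58, 2.89 and 1.6 CPM in old wild-type livers (1.61 ± 0.32, adjusted p = 0.00102). Gpx4, which reduces lipid peroxides, averaged 226 ± 28.9 CPM in Ercc1 d/- livers and 143 ± 24.8 CPM in old wild-type livers (0.66 ± 0.12, adjusted p = 0.000518). Both were without overlap. Gclc, of the same list, overlapped between the groups and did not pass (-0.29 ± 0.28, adjusted p = 0.543). The number of members that rose was 3 without old wild-type replicate 3, 4 without old wild-type replicate 4, 5 without mutant replicate 2, 6 without mutant replicate 3 and 7 without mutant replicate 1. Among 36 lysosomal genes 5 rose and 3 fell. Hexa, a subunit of β-hexosaminidase, which breaks down gangliosides, had 49.3, 42.5, 46 and 36.3 CPM in Ercc1 d/- livers, against 12.8, 14.5, 23.4 and 14.1 CPM in old wild-type livers (1.42 ± 0.15, adjusted p = 1.04e-06). Ctsc, a protease that activates granule proteases of immune cells, fell, with 30.7, 22.8, 14.4 and 23.6 CPM in Ercc1 d/- livers, against 61.6, 61.8, 86.2 and 69.4 CPM in old wild-type livers (-1.61 ± 0.17, adjusted p = 1.04e-06). Of 26 genes of glucose metabolism 6 rose and 4 fell. Pfkfb3, whose product drives glycolysis, had 10.8, 5.64, 8.98 and 6.74 CPM in Ercc1 d/- livers, against 34.2, 28.9, 55.7 and 31.4 CPM in old wild-type livers (-2.22 ± 0.29, adjusted p = 1.18e-05). Ppp1r3c, which targets phosphatase to glycogen, averaged 29.7 ± 10.1 CPM in Ercc1 d/- livers and 10.4 ± 5.17 CPM in old wild-type livers (1.51 ± 0.33, adjusted p = 0.00329). The glucose counts depended on single libraries: 3 rose without mutant replicate 2 and 2 without old wild-type replicate 3, while 1 fell without mutant replicate 1 or old wild-type replicate 1 and 2 without mutant replicate 4.

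Secreted plasma proteins were lower in 7 and higher in 2 of 34 genes (median -0.12). The protease inhibitor Serpina1e, an α1-antitrypsin gene outside this list, had 11451, 8660, 8809 and 9766 CPM in Ercc1 d/- livers, against 21385, 28652, 15727 and 19810 CPM in old wild-type livers (-1.15 ± 0.18, adjusted p = 9.83e-05). Serpina1a fell by 0.94 ± 0.18 (adjusted p = 0.000762), and reads may be shared among these copies. Mbl2, a mannose-binding lectin of complement, rose, with 949.6, 751, 787 and 891 CPM in Ercc1 d/- livers, against 404, 318, 406 and 226 CPM in old wild-type livers (1.32 ± 0.17, adjusted p = 8.1e-06). Alb did not pass (0.17 ± 0.17, adjusted p = 0.578). The hepatocyte list had 2 members lower of 17, among them Foxa2, a factor of liver identity and bile acid control (-1.04 ± 0.26, adjusted p = 0.00872). Those 2 were 11.8% of the list, against 14.7% of all tested genes called and 7.19% called lower. Secreted proteins that fell numbered 3 without mutant replicate 2 or old wild-type replicate 2 and 4 without mutant replicate 3 or old wild-type replicate 1. Of 26 genes tied to stress hormones, the list that holds Serpina12, 1 rose and 5 fell, with 3 lower without mutant replicate 3 or old wild-type replicate 1.

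Genes of protein synthesis and respiration gave few calls. Called were 8.16% of translation factors, 5.13% of mitochondrial ribosomal proteins and 9.62% of ribosome biogenesis genes, against 14.7% of all tested genes. None of 79 tested cytosolic ribosomal protein genes passed by edgeR, DESeq2 or limma-voom. At an unadjusted p under 0.05 there were 2, and the median log2 fold change was -0.0043. The 95% interval lay within ±0.5 for 67 of the 79 and within ±1 for all 79, against 24.1% and 66.8% of all tested genes. Rps6, a subunit that S6 kinase phosphorylates, had 316, 225, 253 and 239.9 CPM in Ercc1 d/- livers, against 279, 319.7, 263 and 264 CPM in old wild-type livers (-0.12 ± 0.12, adjusted p = 0.564), overlapping throughout. Summed over the list the level was 13050 to 18132 CPM in Ercc1 d/- livers, 13074 to 17640 CPM in old wild-type livers and 10258 to 12212 CPM in young wild-type livers. Both groups were thus above the young wild-type range. Of 75 nuclear genes of the respiratory chain none passed by edgeR or limma-voom and 1 passed by DESeq2 (4 rose without old wild-type replicate 2), with 5 at an unadjusted p under 0.05 and 65 intervals within ±0.5 (median 0.07). None of the 13 mitochondrial DNA genes passed by any of these tools, and 2 were at an unadjusted p under 0.05. Among 49 translation factors 1 rose and 3 fell, with 36 intervals within ±0.5, and 1 fell without mutant replicate 2, mutant replicate 3 or old wild-type replicate 1. None rose without mutant replicate 1 or 3 or old wild-type replicate 1, 3 or 4, and 2 rose without mutant replicate 2 or old wild-type replicate 2. Eef2k, the kinase that halts elongation, averaged 3.48 ± 0.593 CPM in Ercc1 d/- livers and 8.27 ± 3.06 CPM in old wild-type livers (-1.25 ± 0.33, adjusted p = 0.0108). Eef1a1, the main elongation factor, was at -0.22 ± 0.11 (adjusted p = 0.201). Of 78 mitochondrial ribosomal proteins 3 rose (6 without old wild-type replicate 2, 5 without mutant replicate 4 and 1 without replicate 1 of both groups) and 1, Mrps28, fell (-0.59 ± 0.15, adjusted p = 0.00834), and of 52 ribosome biogenesis genes 5 rose, but none did without old wild-type replicate 3, 2 without mutant replicate 1, 3 without mutant replicate 3 or old wild-type replicate 4 and 8 without old wild-type replicate 2. Of 38 proteasome genes 3 fell (7.89%, near the 7.19% of all tested genes called lower). The number was 9 without old wild-type replicate 4 and 1 without mutant replicate 2 or 3 or old wild-type replicate 1 or 3.

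Other cell types moved in single markers. Of 30 stellate and matrix genes 4 rose and 1 fell (16.7% called, against 14.7% of all tested genes). Without replicate 1 of both groups 1 rose, and Lrat and Mmp2 were not called. Lrat, which stores vitamin A in stellate cells, averaged 2.78 ± 0.41 CPM in Ercc1 d/- livers and 1.02 ± 0.344 CPM in old wild-type livers (1.45 ± 0.41, adjusted p = 0.018). Its call was lost without old wild-type replicate 1 (1.31, adjusted p = 0.0607) and without old wild-type replicate 3 (1.35, adjusted p = 0.0566). Mmp2, a matrix protease, rose by 1.32 ± 0.31 (adjusted p = 0.00543), while Tagln, of contractile cells, fell by 2.17 ± 0.39 (adjusted p = 0.000427). Of 28 endothelial genes 3 rose (10.7%, against 7.47% of all tested genes that rose), and 1 rose without mutant replicate 1 or without old wild-type replicate 1, 2 or 3. Cd34, of vascular endothelium and progenitors, was among the 3 (1.89 ± 0.33, adjusted p = 0.000318). Of 16 tested bile duct and progenitor genes 2 rose and none fell (12.5% called, against 14.7% of all tested genes). Without old wild-type replicate 4, 3 rose and 3 fell, and by DESeq2 2 fell. Tff3, a mucosal trefoil peptide, had 6.55, 2.85, 2.42 and 7.88 CPM in Ercc1 d/- livers, against 0.333, 0.474, 0.135 and 0.364 CPM in old wild-type livers (3.91 ± 0.54, adjusted p = 2.27e-05). Afp, the fetal plasma protein α-fetoprotein, averaged 7.34 ± 1.66 CPM in Ercc1 d/- livers and 1.76 ± 0.292 CPM in old wild-type livers (2.05 ± 0.27, adjusted p = 1.18e-05). The summed bile duct list nevertheless overlapped, at 366 to 467 CPM in Ercc1 d/- livers and 280 to 1474 CPM in old wild-type livers. Of 9 tested red cell genes 4 fell, all of them globins, and 1 rose; none fell without mutant replicate 1, 2 or 3 or old wild-type replicate 3, by limma-voom or in the 8 libraries alone. Hbb-bs, β-globin, fell by 1.62 ± 0.48 (adjusted p = 0.0255), but by 0.71 (adjusted p = 0.218) without old wild-type replicate 3, which held 892 CPM. It was also lost without mutant replicate 1 (-1.40, adjusted p = 0.08), mutant replicate 2 (-1.66, adjusted p = 0.056) or mutant replicate 3 (-1.65, adjusted p = 0.0567). Tfrc, the transferrin receptor, rose by 1.97 ± 0.27 (adjusted p = 2.46e-05). Exocrine pancreas markers summed to 28.0 to 36.3 CPM in Ercc1 d/- livers and 46.8 to 80.6 CPM in old wild-type livers, and fat and muscle markers to 580 to 968 CPM in Ercc1 d/- livers and 1041 to 1642 CPM in old wild-type livers. Car3, a carbonic anhydrase that male mouse hepatocytes also express, made up 90.8% to 95.2% of the fat and muscle sum in Ercc1 d/- livers and 91.5% to 97.9% in old wild-type livers. Without Car3 the sum was 35.6 to 67.0 CPM in Ercc1 d/- livers and 31.8 to 88.6 CPM in old wild-type livers, with overlap. Of 3 tested pancreas markers 2 fell, or 1 without mutant replicate 2 or 4 or old wild-type replicate 2 or 4. Of 6 tested fat and muscle markers 1, Car3, fell, and none without mutant replicate 1, 3 or 4 or old wild-type replicate 1, 2 or 4. Their part in other results was not tested.

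Among called genes of at least 2 CPM on average without overlap, the largest rises were in genes low in old livers. Slc39a4 (chr15:76612383-76617384), the zinc importer ZIP4, had 61.9, 72.7, 63.5 and 45.8 CPM in Ercc1 d/- livers, against 1.33, 2.37, 2.09 and 0.873 CPM in old wild-type livers (5.19 ± 0.45, adjusted p = 2.56e-07), and 11.2 ± 2.09 CPM in young wild type. Igsf23 (chr7:19937305-19950756), of the immunoglobulin superfamily, had 358 counts in Ercc1 d/- livers and 6 in old wild-type livers. Its fitted rise of 5.56 ± 0.52 (adjusted p = 2.56e-07; 6.65 without old wild-type replicate 2) depends on those few counts. Pls1, an actin-bundling plastin, rose by 5.23 ± 0.66 (adjusted p = 1.18e-05), with 865 counts in Ercc1 d/- livers and 19 in old wild-type livers. Hr, a nuclear corepressor that thyroid hormone induces in brain, rose by 4.89 ± 0.54 (adjusted p = 1.41e-06) on 434 counts in Ercc1 d/- livers and 12 in old wild-type livers. Myo15b, a myosin-like gene, rose by 3.96 ± 0.44 (adjusted p = 1.88e-06). All of these were without overlap. On the other side, Dusp4, a phosphatase of MAP kinases, fell by 3.55 ± 0.54 (adjusted p = 6.85e-05; -2.54 without old wild-type replicate 1). Tchh, trichohyalin, fell by 3.66 ± 0.69 (adjusted p = 0.00114; -2.94 without old wild-type replicate 1), and Lrtm1, a leucine-rich repeat membrane protein, fell by 3.66 ± 0.66 (adjusted p = 0.000595; -4.97 without mutant replicate 3). Igsf23 lies 0.593 Mb from Ercc1 on chromosome 7. Of 81 tested genes within 5 Mb of Ercc1, 12 passed (14.8%), 7 higher and 5 lower, against 14.7% of the 12609 genes elsewhere, a share near the background.

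None of 3 measures of whole libraries passed. For the span slope, log2 levels were first centred per gene over the 8 libraries. The 2 group means of that slope therefore mirror each other, and only their difference is informative. The slope of level on gene span, in log2 units per 10-fold span, averaged -0.0610 ± 0.0607 in Ercc1 d/- livers and 0.0610 ± 0.189 in old wild-type livers (SD, n = 4 each; difference -0.122, two-sided exact permutation p = 0.257, adjusted p = 0.314 over 3 measures). The mitochondrial DNA share of counts was 9.96% ± 0.655 in Ercc1 d/- livers and 9.40% ± 0.738 in old wild-type livers (exact permutation p = 0.314, adjusted p = 0.314). Albumin took 6.23% ± 0.587 of the counts in Ercc1 d/- livers and 4.95% ± 1.05 in old wild-type livers (exact permutation p = 0.0857, adjusted p = 0.257). With 4 libraries against 4 the smallest p is 0.0286. In the span slope old wild-type replicate 2 lay apart, at -0.218 against 0.111 to 0.188 in the other old libraries, and without it the difference was -0.215 (exact permutation p = 0.0286, n = 4 and 3). That p is not adjusted over the 3 measures and is the smallest that 4 against 3 can give. With any other single library left out, the exact permutation p was 0.229 to 0.457.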

How the data were processed

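Gene counts of polyA mRNA were analysed as deposited. Per the submitters' processing notes, reads were trimmed with Trimmomatic 0.39, aligned with STAR 2.7.0f to GRCm38.p6 and counted with featureCounts of Subread 1.6.4. The sources used here do not give the annotation release, strand setting or treatment of multiply mapped reads, so close copies and antisense pairs may share reads. The authors deposited raw counts for 22429 genes, of which 4868 had none in the 8 libraries. The gene lengths of the same table were not used for levels.

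Samples were grouped by the labels. All 24 libraries entered 1 edgeR 4.0.16 quasi-likelihood model (R 4.3.3; TMM, filterByExpr, robust) whose coefficients were the 6 group means, so that the spread was estimated jointly on 18 residual degrees of freedom. The contrast was Ercc1 d/- at 16 weeks minus Ercc1 +/+ at 104 weeks, with Benjamini-Hochberg adjustment over all 12690 tested genes and calls at 0.05. SE is the log2 fold change divided by the square root of F. The model was tested on simulated data. No 2 replicates of a group agreed within sampling noise (chi-square over its degrees of freedom was 8.77 or more). Whole-library measures used two-sided exact permutation tests over 70 relabellings.

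Alternatives were DESeq2 size factors, upper quartile scaling, no filter, a mean CPM of at least 1, DESeq2 1.42.0, limma-voom (limma 3.58.1), the 8 libraries alone, a replicate block, and each library left out; leaving out replicate 1 of both groups was added after seeing the data. The rule for named genes took the 8 largest rises and falls among 1207 candidates (called, at least 2 CPM on average, no overlap, with a gene symbol), up to 3 called members per list by adjusted p, and fixed anchor genes. Of the 189 genes it gives 114 are described, a choice made with their values and stability known, besides Oas1a, Gbp3 and the members named, after their values were seen, for their share of a summed list; some others are not reported here. The 45 gene lists and the comparison were chosen with earlier results of these data known. Promoters were taken from RefSeq (GRCm38.p6).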

Additional observations from a re-analysis of the deposited data

Results flagged for a closer look

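Within the 4 libraries of a group, 1 library lay far from the rest (by Dixon's test at its 95% critical value) in 22 of 238 groups of values examined, and chance marks about 1 in 20 groups. All values are CPM. In replicate 1 of the Ercc1 d/- livers the value apart was 64.3 for Irf7 (others 41 to 44.3), 3406 for Eef1a1 (others 2860 to 2931), 6.86 for Pls1 (others 15.6 to 16.2), 4.66 for Hr (others 7.5 to 7.69) and 8.81 for Oas1a (others 5.72 to 6.13). In replicate 2 of the Ercc1 d/- livers the value apart was 129 for Cyp2c29 (others 101 to 102). In replicate 3 of the Ercc1 d/- livers the value apart was 232 for Cyp4a10 (others 390.2 to 417) and 163 for Cyp4a32 (others 257 to 265). In replicate 4 of the Ercc1 d/- livers the value apart was 4.77 for Gtse1 (others 2.96 to 3.19) and 14.7 for Dbp (others 9.62 to 9.91). Mutant replicate 1 was thus high in the interferon genes Irf7 and Oas1a and low in Pls1 and Hr. In replicate 1 of the old wild-type livers the value apart was 2338 for Fasn (others 441 to 729), 426 for Egr1 (others 1.34 to 12), 23.9 for Fos (others 0.946 to 1.35), 36.2 for Klf10 (others 21.2 to 23.6), 36.1 for Maff (others 5.24 to 10.4) and 0.665 for Pls1 (others 0.237 to 0.291). In replicate 2 of the old wild-type livers the value apart was 366 for Serpina12 (others 217 to 232). In replicate 3 of the old wild-type livers the value apart was 2.29 for Usp18 (others 0.831 to 0.946), 0.135 for Gtse1 (others 0.509 to 0.582), 79.3 for Cyp7a1 (others 2.29 to 15.4), 23.4 for Hexa (others 12.8 to 14.5) and 892 for Hbb-bs (others 159 to 252). Old wild-type replicate 1 was high in the immediate-early genes Egr1, Fos, Klf10 and Maff and in the lipogenic gene Fasn, and replicate 3 in β-globin.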

How the results depend on the processing

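The number of genes called in Ercc1 d/- against old wild-type livers stayed within 1.5 times of 1861 in each alternative but 1. It ran from 1372 (the 8 libraries alone) to 2183 (DESeq2), and from 1380 to 1905 with single libraries left out. The genes themselves were less stable than their number. The 8 libraries alone kept 1237 of the 1861 calls (66.5%). With single libraries left out, 69.8% (old wild-type replicate 1) to 84.1% (old wild-type replicate 4) were kept. Without replicate 1 of both groups 1140 genes were called, 1059 of them among the 1861, and 488 were lower; fewer libraries entered that fit. Upper quartile scaling gave 58.4% higher calls and the fit without both replicates 1 gave 57.2%, against 50.9%. The difference in gene span slope ranged between -0.215 without old wild-type replicate 2 (exact permutation p = 0.0286, unadjusted and the smallest possible there) and -0.0797 without old wild-type replicate 4. Saa1 changed sign, with values between -1.01 and 1.76 when single libraries were left out and -0.49 without replicate 1 of both groups, where Clec4f (-0.0598) and Cd68 (-0.0301) also did; none of these was called, and the cause was not tested. Over all 189 genes of the naming rule, 131 were called; 101 of these kept their call whichever single library was left out, 107 in the other planned settings, 102 without replicate 1 of both groups and 90 throughout.

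The replicate block called 1823 genes, 944 higher and 879 lower, 874 of them past 1 on the log2 scale. Of the genes described, Egr1 (-4.47, adjusted p = 0.0678), Fos (-2.77, adjusted p = 0.0546) and Hbb-bs (-1.48, adjusted p = 0.0563) were called without the block and not with it, and no red cell gene fell with it. Deviations of same-numbered libraries correlated at 0.047, -0.097, -0.091 and 0.152, and replicates 1, 2 and 3 of the mutant correlated better with another number, so the numbers were not read as pairing. With 4 libraries a group, the 95% interval of the change lay within ±1 for 66.8% of the tested genes, which limits what genes of few counts can show.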
